A study of Mus musculus with 15 samples.

Results

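The p38–MK2 pathway is the kinase route through which macrophages phosphorylate tristetraprolin (TTP, encoded by Zfp36), and 9 genes of this route were examined as RNAs that TTP itself might contact. They were Mapk14 (p38α), Mapkapk2 (MK2) and Mapkapk3 (MK3), the p38-activating kinases Map2k3 (MKK3), Map2k6 (MKK6) and Map2k4 (MKK4, which also activates JNK), the MAP3 kinases Map3k5 (ASK1) and Map3k8 (TPL2), and Gadd45b, which encodes an activator of the MAP3 kinase Map3k4. They were picked by name as 9 of 21028 protein-coding genes with an annotated 3′UTR, and 8 of the 9 held at least 1 crosslink site on their own strand in at least 1 of 6 lists of TTP crosslink sites. Mapkapk3 held none. The lists came from individual-nucleotide resolution crosslinking and immunoprecipitation (iCLIP), which marks the nucleotide where ultraviolet light joined a protein to RNA and counts unique cDNAs, each taken to be 1 recovered RNA molecule.

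The cells were bone marrow-derived macrophages of TTP-deficient mice (C57BL/6), immortalized with the oncogenes hcmyc and hRasG12V. They carried a retroviral, tetracycline-inducible vector for GFP–TTP or for GFP–TTP-AA, whose MK2 target serines were changed to alanine. All groups received doxycycline for 6 h, so both proteins were made also without lipopolysaccharide (LPS, the bacterial ligand of TLR4), from a transgene and not from the Zfp36 locus. LPS was given for 0 h (2 samples of each protein), 1 h (4 of GFP–TTP, 3 of GFP–TTP-AA) or 4 h (2 of each), which makes 15 samples. Nothing in the labels says that the samples of a group came from separate cell lines or animals.

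Background on the pathway helps to place these genes. LPS activates MAP3 kinases, which phosphorylate MKK3, MKK6 and MKK4. MKK3 and MKK6 phosphorylate p38α, and p38α activates MK2 and MK3. MK2 phosphorylates TTP, which then binds 14-3-3 proteins and recruits the deadenylase machinery less well, so that mRNAs with AU-rich elements in their 3′UTRs last longer. TTP binds such elements through its zinc fingers, with UAUUUAU as the preferred core and AUUUA as its shortest common form.

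The 6 lists held between 8052 and 86497 sites and between 19167 and 174397 cDNAs, each list being the authors' sum over the libraries of a group. There were therefore no replicate values, every test below compares pooled lists and not conditions, and every interval covers counting error only. A list holds only sites that passed the authors' false-discovery threshold, so a 0 means that no site passed it. The 3′UTR cDNAs on the sense strand summed to 4369 (0 h), 9558 (1 h) and 906 (4 h) for TTP, and to 6008, 93510 and 1000 for TTP-AA. The 1 h lists carried a mark in their headers on how regions were treated in site calling that the 0 h and 4 h lists lacked, so LPS time and site calling cannot be told apart. Of 8 macrophage markers, 6 held sense cDNAs in any region in at least 1 list (summing to 367 in TTP-AA at 1 h and to 0 in TTP-AA at both other times), whereas the defining markers Fcgr1 and Mertk were listed at 0. All 4 T cell, 3 B cell, 4 fibroblast and 4 neutrophil markers were listed at 0. Crosslinks reflect binding as well as expression, so these counts are only a coarse check of the cell type.

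The RNA at the sites is shown first, because few of these genes are crosslinked at a canonical AU-rich element. Each sequence is a stretch of 30 nt of the 3′UTR around the middle site of a cluster, where a cluster is a run of sites with gaps of at most 15 nt over all lists. The sequences are given 5′ to 3′ as RNA from the GENCODE M21 transcripts on GRCm38 (mm10), with AUUUA in capitals wherever it occurs. The Gadd45b stretch lies at chr10:80932106-80932135 on the plus strand and carries the densest binding of the 9 genes. The Mapk14 stretches A and B lie at chr17:28747758-28747787 and chr17:28747863-28747892 on the plus strand, A at the largest cluster and B at the single AUUUA of this 3′UTR. The Mapkapk2 stretches A and B lie at chr1:131054810-131054839 and chr1:131053732-131053761 on the minus strand, A within the cluster crosslinked by both proteins. Stretch A leaves out the TTP-AA site at 249 nt after the stop codon, with 3 of this cluster's 5 TTP-AA cDNAs. It also leaves out the TTP site at 288 nt. The Map2k3 stretch lies at chr11:60952210-60952239 on the plus strand, and the Map2k4 stretch at chr11:65688465-65688494 on the minus strand.
Gadd45b: agcacaucuauuuuuaauauugugcugagc
Mapk14 A: uuauuuuaauauuuuguauuuucaccuuua
Mapk14 B: cccauAUUUAagcuuugugugcaguaagaa
Mapkapk2 A: uauggaaccugucuucuuguccuuuucccc
Mapkapk2 B: guuguaaacucucguuuuguaugagcaaaa
Map2k3: gcagguuguauauauauuuuaaaucacaac
Map2k4: gcuucuuggagcuuuggaauauuuuauccu
Only the Mapk14 B stretch among these 7 holds AUUUA. The Gadd45b, Mapk14 A, Map2k3 and Map2k4 stretches hold UAUUU followed by further uridines, and the Mapkapk2 stretches hold neither AUUUA nor UAUUU. The Mapkapk2 A stretch is rich in pyrimidines.

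Crosslinking of the 9 genes' 3′UTRs was found mostly with TTP-AA after 1 h of LPS. In that list 6 of the 9 genes (Mapk14, Mapkapk2, Map2k3, Map2k4, Map3k8 and Gadd45b) had at least 1 3′UTR site, where 21.4% of all 21028 genes had one. Of the 21028 genes, 6999 had a sense site in any list, and genes not expressed in these cells were not removed. In TTP at 1 h, 2 genes had a 3′UTR site (Mapkapk2 and Gadd45b; 6.21% of all genes), and the same 2 did so in TTP-AA at 0 h (4.36% of all genes). None of the 9 did in TTP at 0 h (3.62% of all genes), in TTP at 4 h (0.604%) or in TTP-AA at 4 h (0.942%). The 9 genes together held 106 cDNAs at 75 sites in TTP-AA at 1 h, 7 cDNAs at 7 sites in TTP at 1 h and 4 cDNAs at 3 sites in TTP-AA at 0 h. The cDNA ratio of TTP-AA over TTP at 1 h was 15.1, and it was 14.0 without Gadd45b (70 against 5 cDNAs). Scaled to the summed 3′UTR cDNAs of the lists, which were themselves 9.78 times as many in TTP-AA, the ratio was 1.55. No expression values enter here, so more mRNA per cell and more binding per mRNA cannot be told apart.

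**Figure D1:**
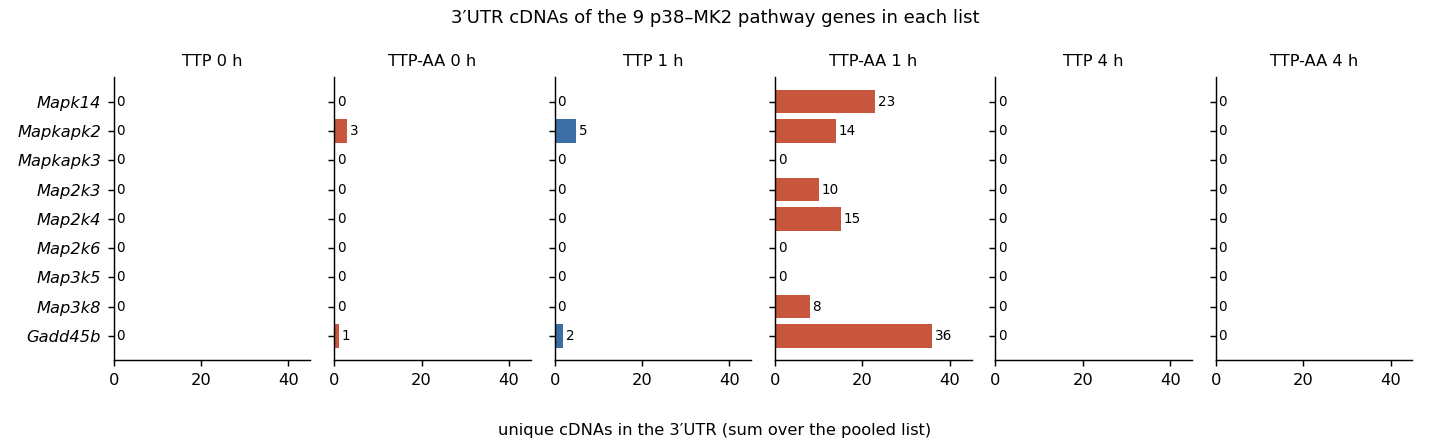
Unique 3′UTR cDNAs (horizontal axis, sum over the pooled list) of each of the 9 genes, with 1 panel for each of the 6 lists, TTP in blue and TTP-AA in red. The TTP-AA list at 1 h runs from 8 to 36 cDNAs in 6 genes, whereas no other list goes above 5 in any of them.

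Within the 9 genes, the share of cDNAs in 3′UTRs was higher in TTP-AA at 1 h than in the other lists, as it was over all protein-coding genes. In TTP-AA at 1 h, 106 of 115 sense cDNAs lay in 3′UTRs (92.2%, Wilson 95% interval 85.8 to 95.8), beside 85.6% over all protein-coding genes. With TTP the 1 h share was 33.3% (7 of 21 cDNAs, 17.2 to 54.6), with the other 14 cDNAs in introns, beside 37.4% over all protein-coding genes. In TTP-AA at 0 h it was 44.4% (4 of 9 cDNAs, 18.9 to 73.3), beside 55.4%. In the remaining lists the 9 genes held 5, 2 and 4 sense cDNAs, none of them in a 3′UTR.

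**Figure D2:**
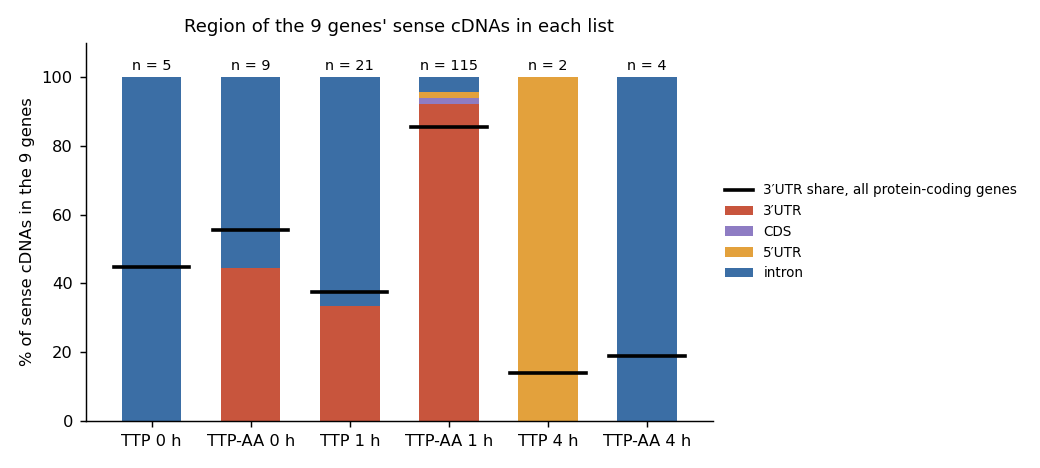
Share of the 9 genes' sense cDNAs (vertical axis, %) in 3′UTRs, CDS, 5′UTRs and introns for each list, with the number of cDNAs above each bar and the 3′UTR share over all protein-coding genes as a black line. The 3′UTR part reaches 92.2% in TTP-AA at 1 h and 33.3% in TTP at 1 h.

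Gadd45b, the smallest of the 9 by 3′UTR length (558 nt), had the most 3′UTR cDNAs, and all of them lay in a single cluster. The cluster covered 50 nt from 468 to 517 nt after the stop codon and ended 41 nt before the end of the 3′UTR, in the last exon at chr10:80932114-80932163 on the plus strand. It held 36 cDNAs at 17 sites in TTP-AA at 1 h, 2 at 2 sites in TTP at 1 h, 1 in TTP-AA at 0 h and 0 in the other 3 lists. The site with the most cDNAs, 475 nt after the stop codon, held 7 cDNAs in TTP-AA at 1 h and was also 1 of the 2 TTP sites. Per length, Gadd45b held 64.5 TTP-AA cDNAs per kb of 3′UTR at 1 h, above 93.6% of the 4510 genes with a 3′UTR site in that list, whose median was 6.21 per kb. The last AAUAAA of this 3′UTR starts 540 nt after the stop codon, downstream of the cluster.

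Mapk14, which encodes p38α, held 23 cDNAs at 21 sites in TTP-AA at 1 h and was listed at 0 in the other 5 lists. Of the 21 sites, 19 held a single cDNA and the other 2 held 2 each. They fell into 5 clusters, and 4 of these lay between 1423 and 1599 nt after the stop codon of a 3′UTR of 2068 nt. The largest cluster (9 cDNAs over 31 nt) lies around the Mapk14 A stretch shown above, and the Mapk14 B stretch with the only AUUUA held 3 cDNAs at 3 sites. Per length the value was 11.1 cDNAs per kb, above 65.1% of the bound genes.

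Mapkapk2, which encodes the kinase that phosphorylates TTP, had the most TTP cDNAs of the 9 and the lowest count ratio of TTP-AA over TTP at 1 h. It held 14 cDNAs at 8 sites in TTP-AA at 1 h, 5 at 5 sites in TTP at 1 h, 3 at 2 sites in TTP-AA at 0 h and 0 in the other 3 lists. The positions also differed between the lists. All 5 TTP sites lay between 268 and 288 nt after the stop codon, next to 3 TTP-AA sites at 249 to 261 nt with 5 cDNAs, and no TTP site was listed elsewhere in this 3′UTR. TTP-AA had a further cluster at 1344 to 1350 nt, 42 nt before the 3′UTR end, with 5 cDNAs at 1 h and 3 cDNAs at 0 h. A cluster at 1301 to 1307 nt held 3 TTP-AA cDNAs and a site at 692 nt held 1, both at 1 h. The single AUUUA of this 3′UTR starts 1378 nt after the stop codon in a 3′UTR of 1392 nt, outside the 20 nt on either side of every listed site.

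The p38-activating kinases were split. Map2k3 held 10 cDNAs at 8 sites in TTP-AA at 1 h, in clusters at 367 to 386 nt (6 cDNAs) and at 827 to 842 nt (4 cDNAs) of a 3′UTR of 964 nt. Map2k4 held 15 cDNAs at 15 sites in the same list, 1 at each, of which 13 lay between 2060 and 2237 nt of a 3′UTR of 2448 nt. Both were listed at 0 in the other 5 lists. Map2k6, whose protein shares the substrate p38α with that of Map2k3, was listed at 0 in the 3′UTR in all 6 lists although its 3′UTR of 918 nt holds 2 AUUUA. Mapkapk3, the kinase closest to MK2, was likewise listed at 0 throughout, with no AUUUA in 1256 nt.

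Of the MAP3 kinases, Map3k8, which links TLR4 to the ERK route, held 8 cDNAs at 6 sites in TTP-AA at 1 h and was listed at 0 elsewhere. Its 3′UTR of 979 nt has 4 AUUUA, and 1 of the 6 sites lay at one of them, 885 nt after the stop codon. Map3k5 was listed at 0 in the 3′UTR in all 6 lists, with 1 AUUUA in 1173 nt. Per length, Map2k3, Mapkapk2 and Map3k8 held 10.4, 10.1 and 8.17 TTP-AA cDNAs per kb at 1 h, and Map2k4 held 6.13, below the median of the bound genes.

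**Figure D3:**
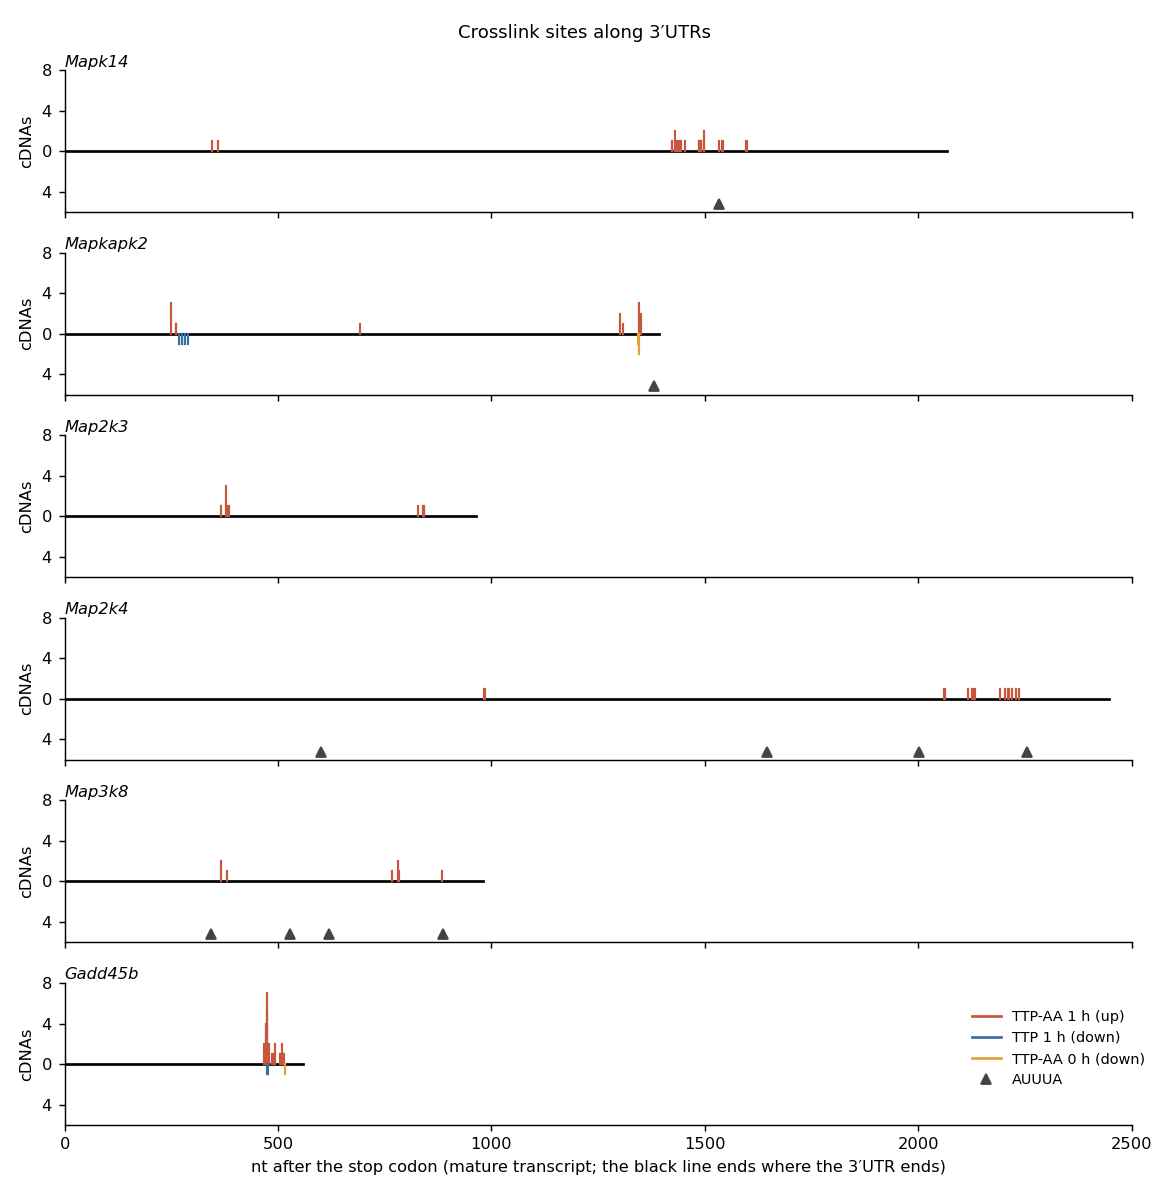
Sites along the 3′UTRs of the 6 crosslinked genes (horizontal axis, nt after the stop codon), with cDNAs per site for TTP-AA at 1 h upward in red and, downward, for TTP at 1 h in blue and TTP-AA at 0 h in yellow. Triangles mark AUUUA, of which the Gadd45b and Map2k3 maps have none, and the Mapkapk2 map shows the TTP sites confined to 268 to 288 nt.

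Whether TTP-AA took a different share of any of these 3′UTRs than TTP was tested with a two-sided Fisher's exact test of each gene's 3′UTR cDNAs against all other 3′UTR cDNAs of the list, adjusted by Benjamini and Hochberg over all genes with at least 10 cDNAs in both lists together. At 1 h, 131 of 2102 genes tested had an adjusted p under 0.05 (6.23%), 41 with a larger share in TTP-AA and 90 with a smaller one, and 394 had an unadjusted p under 0.05. Of the 9 genes, 5 could be tested and 0 passed, and 1 had an unadjusted p under 0.05. All 5 reached the 10 cDNAs needed through TTP-AA. Mapkapk2 came closest, with a smaller share in TTP-AA (odds ratio 0.286, p = 0.0264, adjusted p = 0.188), although its cDNA count was higher there (14 against 5, ratio 2.80, exact 95% interval 0.953 to 9.93). Gadd45b had 18 times as many cDNAs in TTP-AA (4.63 to 154), with an odds ratio of 1.84 (adjusted p = 0.730, exact test). Mapk14, Map2k4 and Map2k3, with 23, 15 and 10 cDNAs in TTP-AA and 0 in TTP, had adjusted p-values of 0.560, 0.662 and 0.730. A count of 0 in TTP is the lowest possible, so a larger share in TTP-AA could not have passed at these totals. Nothing is therefore read from these p-values. Map3k8, with 8 cDNAs in all, was not tested. Differences of share in these genes were not detectable at this depth.

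The result depended on what the counts were divided by. With all cDNAs of a list in any region as the denominator, 84.8% of the 2102 genes had a larger share in TTP-AA past the threshold, so a call there says little about a single gene. Of the 5 genes tested, 4 were past the threshold (Gadd45b, Mapk14, Map2k4 and Map2k3), and Mapkapk2 was not. Gadd45b held 36 cDNAs in TTP-AA and 2 in TTP, and Mapk14, Map2k4 and Map2k3 held 0 in TTP. All 4 reached the 10 cDNAs needed for the test through TTP-AA, so nothing is read from their calls. Over all regions, 53.6% of the TTP-AA cDNAs at 1 h and 9.63% of the TTP cDNAs lay in 3′UTRs.

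**Figure D4:**
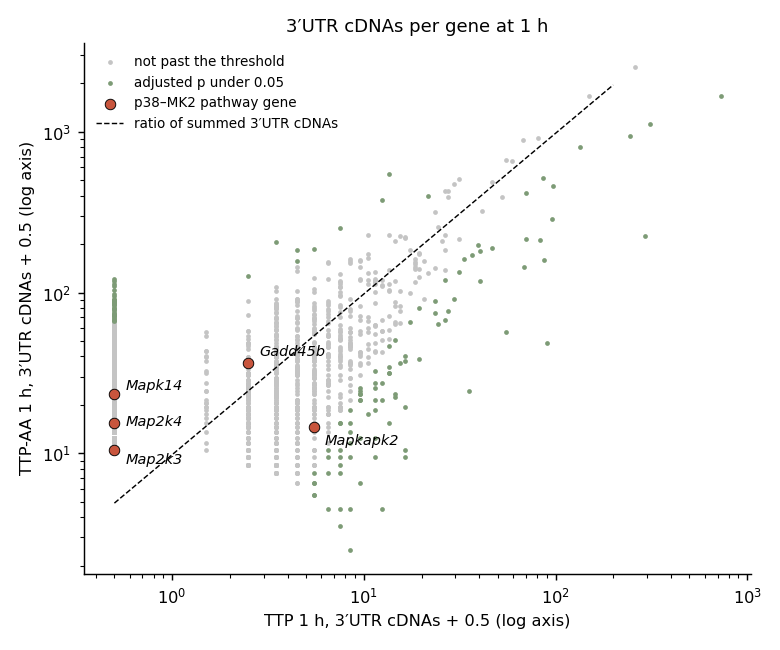
3′UTR cDNAs plus 0.5 of the 2102 genes tested at 1 h, TTP on the horizontal and TTP-AA on the vertical axis (both log axes), with the dashed line at the ratio of the lists' summed 3′UTR cDNAs (9.78). Gadd45b lies close to the line at 36 against 2 cDNAs and Mapkapk2 lies below it at 14 against 5, neither past the threshold.

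Between times, TTP-AA was compared in the same way. From 0 h to 1 h, 284 of 2081 genes tested passed (13.6%), and 0 of the 5 genes tested here did. Mapkapk2 had 14 cDNAs at 1 h against 3 at 0 h (4.67 times, 1.30 to 25.3), with an odds ratio of 0.300 (adjusted p = 0.289, Fisher's exact test). Gadd45b had 36 against 1 (adjusted p = 1, Fisher's exact test). All 5 reached 10 cDNAs through the 1 h list. Mapk14, Map2k4 and Map2k3 were listed at 0 at 0 h, the lowest count possible. A rise in their share could therefore not have passed, and nothing is read from their tests. At 4 h the 9 genes were listed at 0, and 62 of 2009 genes passed between 4 h and 1 h (3.09%) but 0 of the 5 genes tested here, each with an adjusted p of 1. The TTP-AA list at 4 h held only 1000 3′UTR cDNAs, and the largest share among the 9 genes at 1 h was 0.0385% (Gadd45b). At an unchanged share less than 1 cDNA would be listed at 4 h, so a count of 0 was uninformative and these tests could not show a fall. The unadjusted counts in these comparisons were 483 and 122 genes. None of the 9 genes reached 10 cDNAs when the proteins were compared without LPS or after 4 h, or when TTP was compared between times.

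The 2 genes with sites of both proteins at 1 h, Mapkapk2 and Gadd45b, differed in how close the sites of the proteins lay. In Gadd45b the TTP sites at 475 and 477 nt lay at or next to TTP-AA sites at 475 and 478 nt. At 1 h, 5 of the 7 sites of TTP in 3′UTRs lay within 15 nt of a TTP-AA site at 1 h (71.4%, 35.9 to 91.8), beside 76.8% of 6626 TTP sites over all genes. Within 5 nt the share was 28.6% (2 of 7, both in Gadd45b, 8.22 to 64.1), beside 71.9% over all genes. At the same nucleotide it was 14.3% (1 of 7, in Gadd45b, 2.57 to 51.3), beside 46.3%. In Mapkapk2 the TTP sites and the TTP-AA sites of the shared cluster did not interleave, with TTP-AA at 249 to 261 nt and TTP at 268 to 288 nt. These shares rest on 7 sites in 2 genes and were not tested. The 3 TTP-AA sites at 0 h each lay within 3 nt of a TTP-AA site at 1 h.

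AUUUA was less often near these genes' sites than near those of the list as a whole, a difference given here as a description with no test. Of the 75 TTP-AA 3′UTR sites at 1 h, 5 had AUUUA within 20 nt on either side (6.67%), namely 3 in Mapk14, 1 in Map2k4 and 1 in Map3k8, whereas the share over all 60148 sites placed in 3′UTRs was 35.0%. Among sites with at least 2 cDNAs it was 0 of 17, but these include sites of Gadd45b and Map2k3, whose 3′UTRs hold no AUUUA. The share at such sites over all genes was not computed. Within 10 nt the shares were 4.00% and 23.5%, and within 50 nt 25.3% and 51.6%. None of the 9 3′UTRs holds UAUUUAU or UAUUUAUU, which lay within 20 nt of 16.6% and 9.47% of all sites. Neighbouring sites of a gene share their sequence, so this is a description of 6 genes and not of 75 independent sites. Counted by gene, 3 of the 6 (Gadd45b, Mapkapk2 and Map2k3) had no site near AUUUA, and so did 29.4% of the 2732 genes with at least 5 TTP-AA sites. The 3′UTRs themselves held 0 copies in Gadd45b and Map2k3, 1 in Mapk14 and Mapkapk2 and 4 in Map2k4 and Map3k8. The median of the 4510 bound genes was 3, below the count in Map2k4 and Map3k8, and 85.3% had at least 1.

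After the sequences had been seen, looser motifs were counted in the same windows on the transcript strand. The first was UAUUU, which overlaps the pentamer above wherever an A follows it, and the other was AUUUUA. The looser UAUUU lay within 20 nt of 41 of the 75 sites (54.7%), including all 17 in Gadd45b, 11 of 21 in Mapk14, 6 of 15 in Map2k4, 4 of 8 in Map2k3, 3 of 6 in Map3k8 and 0 of 8 in Mapkapk2. The share over all sites was 49.3%, which lies inside the Wilson interval of the 75 sites (43.4 to 65.4). All 17 Gadd45b sites lie in the same cluster of 50 nt, so a higher share was not shown for the genes as a group. AUUUUA lay within 20 nt of 16 of the 75 sites (21.3%), in Mapk14, Map2k4 and Map2k3, and of 10.4% of all sites. Uridine made up 42% of the nucleotides within 10 nt of the 75 sites and 28% of the 3′UTRs that held them, and over all genes these values were 46.1% and 30.7%. No more than 100 nt from the 3′UTR end lay 22 of the 75 sites (29.3%), 17 of them in Gadd45b, against 18.6% of all sites.

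**Figure D5:**
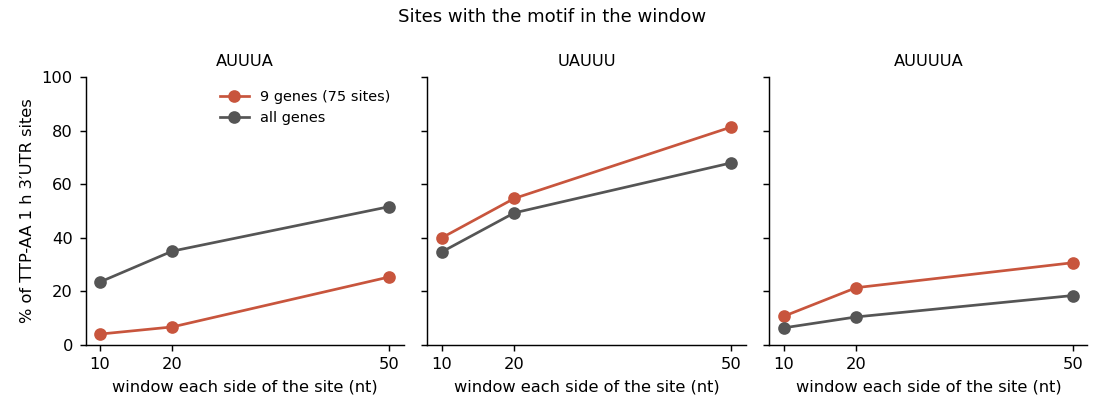
Share of TTP-AA 3′UTR sites at 1 h (vertical axis, %) with each of these motifs in windows of 10, 20 and 50 nt on each side, for the 75 sites of the 9 genes in red and for all genes in grey. For AUUUA the red line lies below the grey one in every window (6.67% against 35.0% at 20 nt). For UAUUU the red line lies above (54.7% against 49.3% at 20 nt). However, 17 of the 41 sites near UAUUU lie in the only Gadd45b cluster, and this motif was picked after the sequences were seen.

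Outside 3′UTRs the sites were few and mostly in introns. Map2k6 had 9 intronic sites of 1 cDNA each, all in TTP at 1 h. Of these, 6 were consecutive nucleotides in intron 8 of an 11-exon transcript (chr11:110496748-110496753, plus strand), and 3 lay in intron 10, 5 nt apart. Mapkapk2 had 5 intronic TTP sites at 1 h in intron 1, at every other nucleotide of chr1:131074235-131074243 on the minus strand. Map3k5 was the only gene of the 9 with intronic sites that recurred between lists. They lay within 16 nt of intron 25 of a 30-exon transcript (chr10:20131662-20131677, plus strand), 288 to 303 nt from the nearest exon, with 3 cDNAs in TTP at 0 h, 5 in TTP-AA at 0 h, 5 in TTP-AA at 1 h and 2 in TTP-AA at 4 h, and none in TTP at 1 h or 4 h. Mapk14 had intronic sites in TTP at 0 h (2 cDNAs) and in TTP-AA at 4 h (2 cDNAs). Coding and 5′UTR sites were limited to 2 cDNAs in exon 10 of Map2k3 and 2 in the 5′UTR of Mapk14, both in TTP-AA at 1 h, and 2 in the 5′UTR of Mapkapk2 in TTP at 4 h.

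Of 28 other genes of the pathway, 15 had a 3′UTR site in TTP-AA at 1 h (21.4% of all genes) and 4 in TTP at 1 h (6.21%). These genes summed to 266 and 11 cDNAs. Taok3, an upstream kinase of the MAP2 kinases, held 54 against 3 cDNAs. Gadd45a, the paralog of Gadd45b, held 52 against 0. It entered the test through its TTP-AA cDNAs alone and did not pass. Its 3′UTR of 563 nt is almost as short as that of Gadd45b and held 92.4 TTP-AA cDNAs per kb at 1 h, whereas Gadd45g was listed at 0 in all lists. Taok1 held 35 against 0, Map3k20 28 against 0, Map3k7 (TAK1) 18 against 2 and Rps6ka5 (MSK1) 18 against 0. Of the 28, 9 could be tested at 1 h and 0 passed, where 6.23% of all genes tested did. For those with 0 cDNAs in TTP, the lowest count possible, a larger share in TTP-AA could not have passed. Their sites had AUUUA within 20 nt more often than those of the 9 genes, 79 of 196 placed sites (40.3%, 33.7 to 47.3), although single genes such as Taok1 with 23 of 32 sites make up much of this count.

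Across the 6 lists, the genes whose 3′UTR counts were nearest to those of Gadd45b, among 2218 genes with at least 10 cDNAs, were B4galt1, Nsf and Top2a, at Euclidean distances of 0.518, 0.552 and 0.839 on the log2 scale (list-size-scaled cDNAs plus 10). B4galt1 held 1 cDNA in TTP-AA at 0 h, 3 in TTP and 45 in TTP-AA at 1 h. For Mapk14 the distance was 0 to several genes that also held 23 cDNAs in TTP-AA at 1 h and none elsewhere, of which Abca1, Arhgap21 and Bdp1 come first by alphabet.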

How the data were processed

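GFP iCLIP of 15 samples in 6 groups was analysed from 6 deposited site lists, 1 per group. The deposited values are scores, which per the file headers and the values are whole numbers of unique cDNAs with a sign for the strand. The authors removed PCR duplicates with random barcode bases, mapped reads with Bowtie to mm10 (Ensembl 75), pooled each group's libraries, and used iCount (100 permutations, 15 nt neighbourhood) to keep sites passing an FDR of 0.05. No normalization was applied.

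Here sites were assigned with GENCODE M21 on GRCm38, on the sense strand, in the order 3′UTR, CDS, 5′UTR, non-coding exon, intron (Python 3.11.15, numpy 2.4.6, scipy 1.17.1, matplotlib 3.10.9). A site in overlapping 3′UTRs counted for each gene. Motifs and positions used each gene's transcript with the longest 3′UTR. Fisher's exact tests were run for 7 pairs of lists after a test on simulated data, with Benjamini-Hochberg adjustment. All 9 genes were named, and of 28 other pathway genes the 6 with most 3′UTR cDNAs at 1 h and any that passed a test. The genes, lists and tests were chosen with earlier results of these data known. UAUUU and AUUUUA were added after the sequences were seen. Intronic sequence was not analysed here.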

Additional observations from a re-analysis of the deposited data

How the results depend on the processing

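No paired analysis was possible because each list is the authors' sum over the libraries of a group, with no value for a single library to pair in a replicate block or to leave out. Not all of the 9 genes could be tested under the alternatives at 1 h. When each site was counted once, 0 of 4 tested passed, beside 106 of 1921 over all genes. At least 5 cDNAs gave 0 of 6 (139 of 3100), and at least 20 gave 0 of 2 (122 of 1178). Sites of at least 2 cDNAs only gave 0 of 2 (62 of 817). All cDNAs as the denominator gave 4 of 5, beside 1792 of 2102 over all genes. These 4 had entered the test through TTP-AA.

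For the number of genes past the threshold among all genes, all cDNAs as the denominator gave 1792 at 1 h (TTP-AA against TTP), 503 for TTP-AA at 1 h against 0 h and 277 for TTP-AA at 4 h against 1 h. Counting each site once gave 31 at 0 h, 7 at 4 h and 67 for TTP at 1 h against 0 h. At least 5 cDNAs gave 159 at 0 h and 51 at 4 h, and at least 20 gave 32 at 0 h, 10 at 4 h and 53 for TTP at 1 h against 0 h. Sites of at least 2 cDNAs gave 62 at 1 h, 31 at 0 h and 10 at 4 h, 90 for TTP-AA at 1 h against 0 h, 19 at 4 h against 1 h, 47 for TTP at 1 h against 0 h and 14 at 4 h against 1 h. The main counts of these comparisons were 131, 74 and 17 (TTP-AA against TTP at 1 h, 0 h and 4 h), 284 and 62 (TTP-AA over time), and 131 and 34 (TTP over time). The cause of these shifts was not tested.

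The ratio of the 9 genes' 3′UTR cDNAs at 1 h (15.1) was 1.55 scaled to summed 3′UTR cDNAs, 5.48 over all sense sites, and 8.62 to 20.2 under the others. With sites of at least 2 cDNAs it was not formed, since TTP then held 0 against 48 cDNAs. Scaling to summed 3′UTR cDNAs turned the log2 ratio of Mapkapk2 from 1.40 to -1.89. The AUUUA share of 6.67% became 25.3% with 50 nt, 0 for UAUUUAU, for UAUUUAUU and at sites of at least 2 cDNAs, 54.7% for UAUUU and 21.3% for AUUUUA. The overlap of 71.4% became 14.3% at the same nucleotide and 28.6% within 5 nt. The 3′UTR share of sense cDNAs kept between 88.6% and 92.2%. Of the 75 sites, 58 hold a single cDNA, which limits every statement on positions.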
